A study of Mus musculus with 18 samples.

Results

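The 8 genes of airway and ciliated epithelium described here were followed in laser-captured areas of the mouse thyroid. They were Scgb1a1, Scgb3a1, Scgb3a2, Sftpd, Cyp2f2, Muc1, Tekt1 and Foxj1. They were chosen by name, as every non-control probe of the array whose gene name was one of these symbols or an older alias, which gave 10 probes for 8 of the 27670 genes on the array. Tekt1 and Muc1 had 2 probes each and the other genes had 1. The 18 arrays, read in 2 colours, each compared RNA of 1 captured area, labelled with Cy5, with a common reference RNA labelled with Cy3. The areas came from thyroids of male C57BL/6 mice, either normal or dissected, the label used for glands after partial thyroidectomy, and from the central or the peripheral part of a lobe. There were 5 arrays of normal central areas, 3 of normal peripheral areas, and 5 each of dissected central and dissected peripheral areas. Age, the time after surgery and the mouse behind each area are not given in the labels, so areas may share animals and p-values over areas may be too small. The reference was a commercial mixture of Swiss Webster mouse RNA from organs that include lung and testis and do not include thyroid. A log2 ratio of 0 therefore means equal normalized Cy5 and Cy3 signal, not absence.

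The lining of the airways is a mixture of secretory and ciliated cells. Secretory (club) cells release secretoglobins, small proteins of the airway fluid, and carry cytochrome P450 enzymes, and multiciliated cells move that fluid with motile cilia built under the control of the forkhead factor Foxj1. The thyroid arises from the foregut endoderm, as the airways do, and the transcription factor Nkx2-1 is active in both organs. The trachea lies beside the thyroid lobes, and thyroid follicles are not known for motile cilia of this kind.

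Signals of single probes depend on what each probe binds, so the 30 bases at the 5′ end of the 60-base probes are given first, without any part marked, for all members except Scgb3a2. The longest run of bases that any 2 of the members' probes shared was 5 to 8 over the 28 pairs of the genes' brightest probes, and 5 to 8 over the 10 pairs of secretory genes described together below.
Scgb1a1: tgaagctcactggatttcagagatattcta
Scgb3a1: gttgaggggaacctgggaaaattctgcctg
Sftpd: aggacaatatttggccaggagtttaaccag
Cyp2f2: aatgacgtgacaaaggtgaaatacccgtct
Muc1, brighter probe: ctatagcacagtaccattttctaccttctc
Tekt1, brighter probe: cagaggccatctgctgataggagccattca
Tekt1, second probe: aggaacaagctggctgatcatctggccaag
Foxj1: ggagagactaatatagtgaatgtagttata

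On the build mm7 (NCBI35) given in the array files, the Scgb1a1 probe lay at chr19:8763869-8763928, the Scgb3a1 probe at chr11:49621744-49621803, the Sftpd probe at chr14:38598705-38598764, the Cyp2f2 probe at chr7:24052410-24052469 and the Foxj1 probe at chr11:116439945-116440004. The brighter Tekt1 probe lay at chr11:72426295-72426354. The second Tekt1 probe spanned 6105 bases of genome, chr11:72427327-72433431, for 60 bases of probe. The brighter Muc1 probe lay at chr3:89357452-89357511, and the second spanned 158 bases, chr3:89357590-89357747. The exon or untranslated region under each probe was not determined, since no annotation of that build was used here.

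RefSeq promoters on GRCm38 were found for 4 of the 8 members, and the 250 bases before the start are printed for 3, the secretory genes Cyp2f2 and Scgb3a1, which moved together from array to array, and Tekt1, a gene of cilia. Capitals mark a match to 1 of 5 motifs searched on both strands. They were the TATA box, the forkhead core, the C/EBP pattern, the core bound by NKX2-1 and the X-box bound by RFX factors of cilium genes, the last of which was added after the Tekt1 sequence had been seen.
Scgb3a1, chr11:49663345-49663594, plus strand: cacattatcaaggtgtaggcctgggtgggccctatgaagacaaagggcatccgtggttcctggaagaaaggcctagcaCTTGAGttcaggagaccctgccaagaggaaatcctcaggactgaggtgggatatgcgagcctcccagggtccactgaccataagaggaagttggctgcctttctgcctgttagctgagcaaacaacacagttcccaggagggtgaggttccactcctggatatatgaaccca
Cyp2f2, chr7:27119705-27119954, plus strand: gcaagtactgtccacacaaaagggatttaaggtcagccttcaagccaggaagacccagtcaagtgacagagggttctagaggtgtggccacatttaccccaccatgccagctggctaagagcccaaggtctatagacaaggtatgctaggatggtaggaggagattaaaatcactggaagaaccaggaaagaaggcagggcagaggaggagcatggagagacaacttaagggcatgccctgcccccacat
Tekt1, chr11:72361883-72362132, minus strand: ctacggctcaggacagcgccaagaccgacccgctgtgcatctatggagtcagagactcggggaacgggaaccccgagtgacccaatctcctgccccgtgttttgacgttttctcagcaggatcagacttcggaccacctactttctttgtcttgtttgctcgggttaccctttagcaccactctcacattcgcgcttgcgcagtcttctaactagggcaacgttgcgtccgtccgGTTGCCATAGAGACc

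The Scgb3a1 promoter held the NKX2-1 core, CTCAAG, on the minus strand at 172 to 167 bases before the start, a motif found in 13.3% of 32851 promoters of this length. The Tekt1 promoter held the X-box 15 to 2 bases before the start, a pattern found in 0.767% of these promoters. Since this motif was added after that sequence had been seen, the share does not measure how unlikely the match is. The Cyp2f2 promoter and the second annotated Tekt1 start held none of the 5 motifs, and the Muc1 promoter held the TATA box, TATAAA, present in 12.4% of promoters, at 31 to 26 bases before the start. The forkhead core was searched only as TGTTTAC, which was found in 3.17% of promoters and in none of those of the members. Other forms of that core were not searched. The C/EBP pattern, TTGCNNAA, was found in 9.56% and in none of those of the members. A match is a string of letters and not a measured binding site.

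Of all gene probes, 25.4% (normal peripheral 1) to 44.6% (dissected peripheral 5) were well above background in Cy5. Normal peripheral 1, dissected central 1, dissected central 2 and dissected peripheral 1 were the 4 lowest, at 25.4% to 30.3%. Tg, the thyroglobulin gene, had log2 ratios of 0.69 to 3.01 on the 18 arrays, and Calca, the calcitonin gene of C cells, was higher in the central area of the normal gland (log2 difference 3.83, SE 0.72, limma adjusted p = 0.0372). Values below are log2 ratios of Cy5 over Cy3 after background correction and loess, with the raw Cy5 intensity beside them where the spots were near background. Of the 8 genes, 7 had a probe well above background in Cy5 on at least 3 arrays and were tested, among 14679 genes in all. In bulk RNA, fewer cells of a type and less RNA per cell cannot be told apart.

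Scgb3a1, a secretoglobin of upper airway secretory cells, was well above background on 18 of 18 arrays and ranged over a 130-fold span of ratio. Its log2 ratio was -0.80, -2.83, 0.11, -2.56 and -0.26 on the normal central arrays 1 to 5 and -1.13, -3.49 and -3.54 on the normal peripheral arrays. It was 2.83, -3.56, -1.78, -0.62 and -3.39 on the dissected central arrays and 0.64, -4.19, -2.04, 2.34 and -3.55 on the dissected peripheral arrays. Dissected central 1 and dissected peripheral 4 were thus the highest 2 arrays, while other arrays of the same groups were among the lowest. Raw Cy5 intensity ran from 187 on dissected central 2 to 55890 on dissected peripheral 4. All groups overlapped with one another.

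Scgb1a1 encodes the club cell secretory protein. Its log2 ratio was -0.78, -1.79, -1.74, -1.50 and 1.13 on the normal central arrays and -0.35, -2.14 and -2.14 on the normal peripheral arrays. On the dissected central arrays it was 2.55, -1.07, -2.39, -1.36 and -2.22, and on the dissected peripheral arrays 0.60, -2.10, 0.03, 1.88 and -2.57. The same 2 arrays stood highest as for Scgb3a1, and normal central 5 came next. It was well above background in Cy5 on 14 of 18 arrays, with raw intensity of 94 to 2145, so the low ratios lay close to the limit of detection.

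Scgb3a2, a further secretoglobin of the airways, had log2 ratios of -0.54, -1.60, 0.25, -1.48 and 2.12 on the normal central arrays and -0.53, -2.11 and -2.87 on the normal peripheral arrays. It had 1.20, -1.21, -2.83, -0.46 and -1.67 on the dissected central arrays and -0.45, -2.24, -3.04, 2.68 and -2.28 on the dissected peripheral arrays. Dissected peripheral 4 was highest, followed by normal central 5 and then dissected central 1. It was well above background on 18 of 18 arrays, with raw Cy5 intensity of 94 to 7483.

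Sftpd encodes surfactant protein D, a collectin that binds microbes at airway and other mucosal surfaces. Its log2 ratio was -0.41, -0.33, 1.33, -0.98 and -0.41 on the normal central arrays and -0.24, -1.21 and -1.56 on the normal peripheral arrays. It was 1.65, -0.59, -1.81, 0.33 and -1.45 on the dissected central arrays and -0.85, -1.52, -0.67, 2.89 and -1.81 on the dissected peripheral arrays. In Cy5 it was well above background on 4 of 5 normal central, 0 of 3 normal peripheral, 2 of 5 dissected central and 2 of 5 dissected peripheral arrays. Against the normal peripheral arrays, on none of which it was well above background, the normal central mean of normalized Cy5 signal was 1.67-fold higher. Without normal central 3 it was 1.31-fold higher. Both are folds of measured means and not lower bounds. This difference did not pass the test (limma adjusted p = 0.839). The dissected peripheral mean lay above the normal peripheral mean through dissected peripheral 4, and without that array the difference in log2 ratio turned from 0.61 to -0.21 (limma adjusted p = 0.896 and 0.956).

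Cyp2f2, a cytochrome P450 abundant in club cells, had log2 ratios of -1.92, 0.53, 0.74, -3.61 and 0.93 on the normal central arrays and -0.64, -2.80 and -2.62 on the normal peripheral arrays. It had 1.93, -2.52, -2.30, -1.45 and -2.08 on the dissected central arrays and -0.14, -3.25, -2.03, 1.97 and -4.10 on the dissected peripheral arrays. Dissected peripheral 4 and dissected central 1 were again highest, and it was well above background on 18 of 18 arrays, with raw Cy5 intensity of 161 to 10420. Within the normal central group, 3 arrays lay above 0 and normal central 4 lay at -3.61, the lowest value but for dissected peripheral 5.

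**Figure D1:**
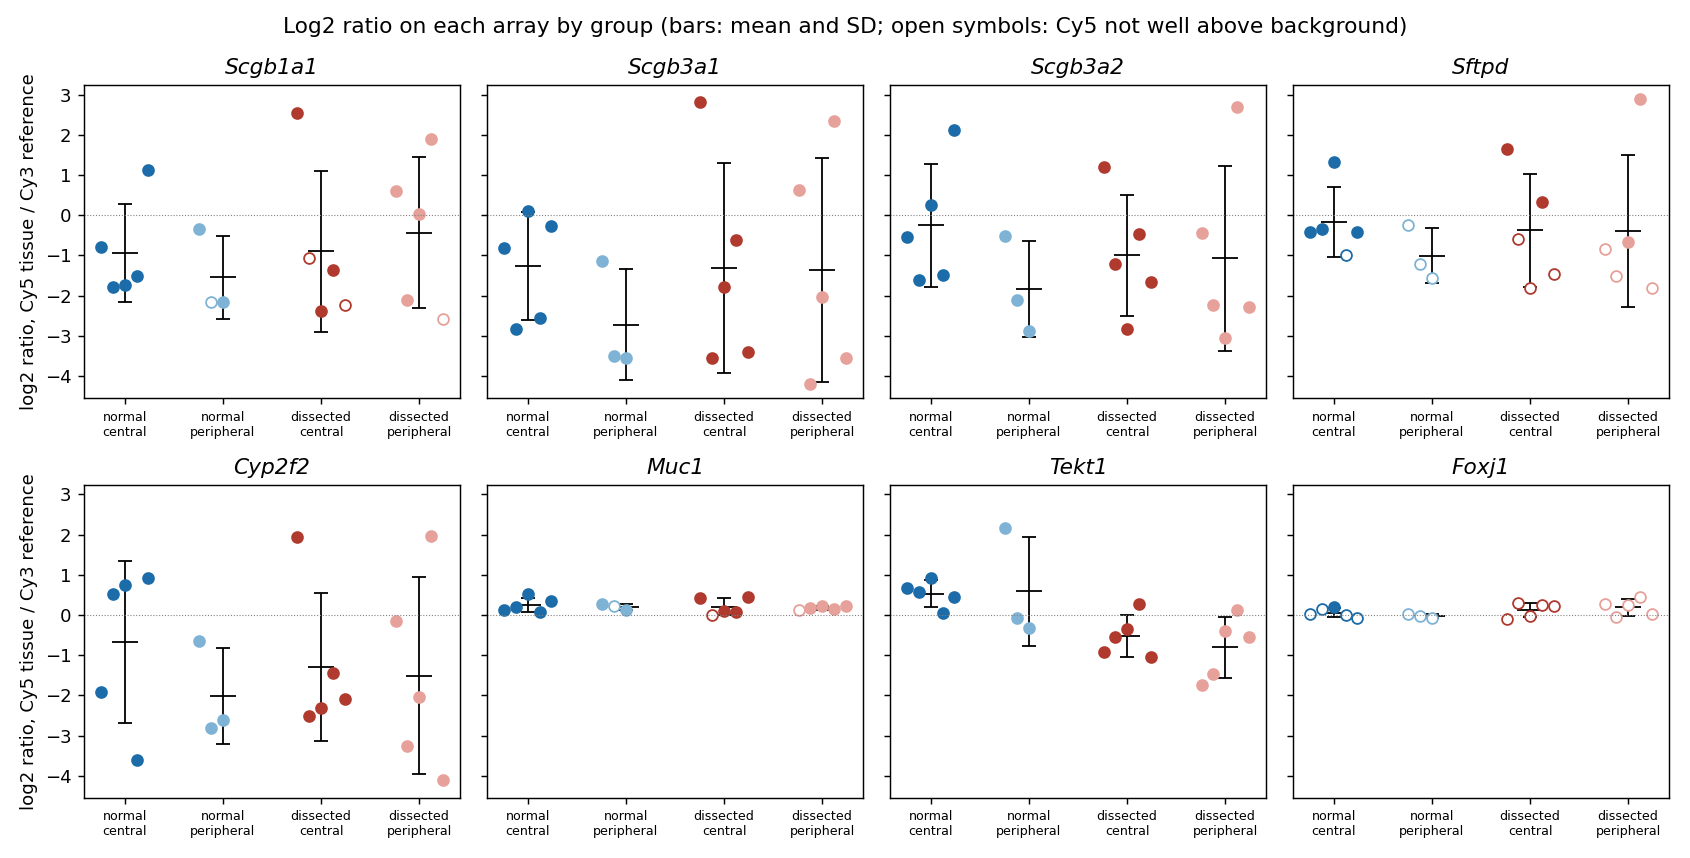
Log2 ratio of Cy5 tissue over Cy3 reference (y axis) on each array for the 8 genes, by group (x axis), with the group mean and SD as bars and open symbols where Cy5 was not well above background. The 5 secretory genes spread over 4.70 to 7.02 log2 units with overlapping groups, Muc1 and Foxj1 lie near 0 on every array, and the Tekt1 means of the dissected groups lie below those of the normal groups.

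These 5 secretory genes moved together from array to array. Dissected peripheral 4 was among the highest 2 arrays for 5 of 5 genes and dissected central 1 for 4 of 5, and on both the 5 genes had ratios above 0. Normal central 3 and normal central 5 were among the highest 5 arrays for 4 of 5 genes, and dissected peripheral 1 for 3. At the other end, dissected peripheral 5 and normal peripheral 3 were among the lowest 5 arrays for 5 of 5 genes and dissected peripheral 2 for 4. Sftpd was well above background in Cy5 on 8 of 18 arrays and Scgb1a1 on 14, so the order of their lowest arrays is uncertain. High and low arrays thus came from within the same groups. Of the 3 highest arrays, dissected central 1 is 1 of the 4 with few probes above background, while dissected peripheral 4 and normal central 5 are not. The part of this in the order of the arrays was not tested.

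Over the 18 arrays, Pearson's r was 0.705 to 0.841 in the 10 pairs of secretory genes and Spearman's rho 0.715 to 0.847. Permutation tests (100000 permutations, two-sided, 21 pairs of 7 genes) gave p = 3e-05 to 0.00206 for r, or 0.00033 to 0.00433 after Benjamini-Hochberg adjustment over the 21 pairs. Without the 2 arrays farthest from the median of the first gene, r was 0.369 to 0.855, the lowest being Scgb1a1 with Sftpd. Within groups (each gene centred on its group means) r was 0.708 to 0.846, and within slides 0.721 to 0.921. It was 0.634 to 0.955 over the 7 arrays of scan day 1 and 0.712 to 0.945 over the 11 of scan day 2. Without the 4 arrays with the fewest probes above background, r was 0.681 to 0.886. With the Cy5 signal alone, without the reference channel, r was 0.716 to 0.896. The points share the amplification and labelling of each captured area. Arrays on which Sftpd or Scgb1a1 was not well above background were included.

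**Figure D2:**
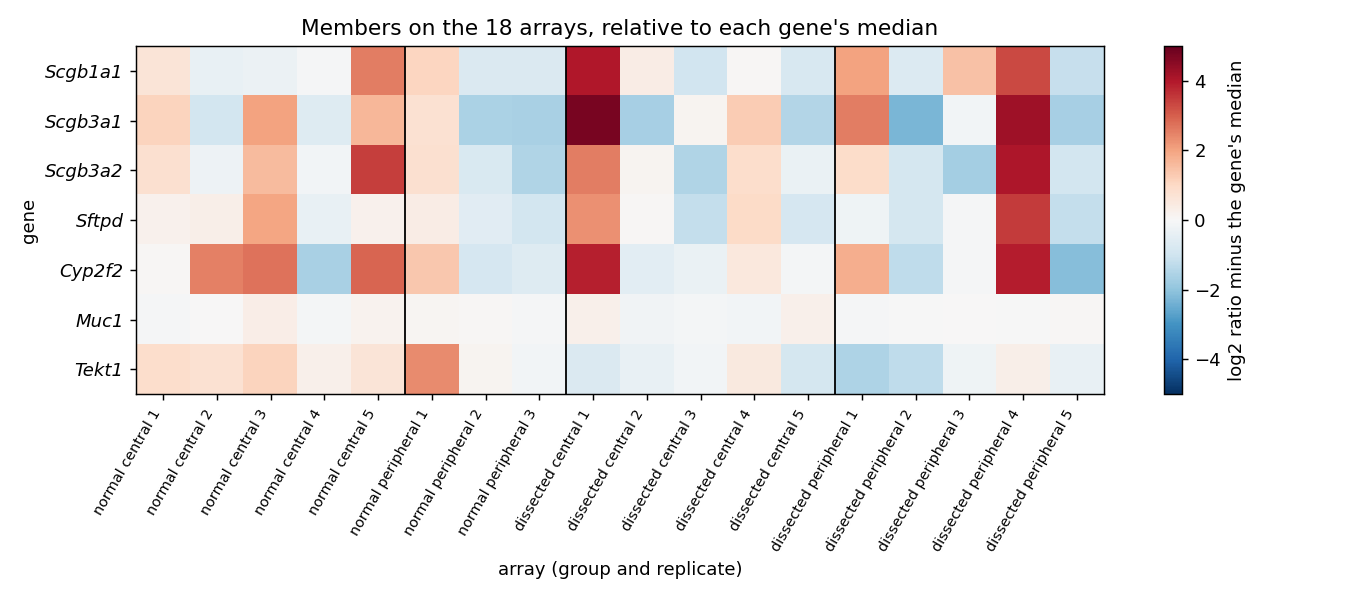
Log2 ratio of the 7 tested genes (rows) on the 18 arrays (columns, by group and replicate), each minus the gene's median over arrays. Columns of 1 colour over the 5 secretory genes, such as dissected central 1 and dissected peripheral 4, show arrays on which these genes were high together. The Muc1 row is nearly flat, with values near background, and the Tekt1 row, of the brighter probe, is highest on normal peripheral 1.

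The spread of these 5 genes within groups was near the top of all genes. The within-group SD was 2.22 for Scgb3a1 (rank 5 of 14679 from the top), 2.01 for Cyp2f2 (rank 10), 1.74 for Scgb3a2 (rank 19), 1.65 for Scgb1a1 (rank 22) and 1.37 for Sftpd (rank 38), against a median of 0.32 over all genes. Differences between the 4 groups made up 5.02% to 10.4% of the variance of the 5 genes, below the median of 17.5% over all genes. Among the genes with a yet larger SD or close to it were Ltf and Reg3g, secreted antimicrobial proteins, Pth, the parathyroid hormone gene, and the muscle gene Myh8. Markers of parathyroid and muscle were thus among the most variable genes too.

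**Figure D3:**
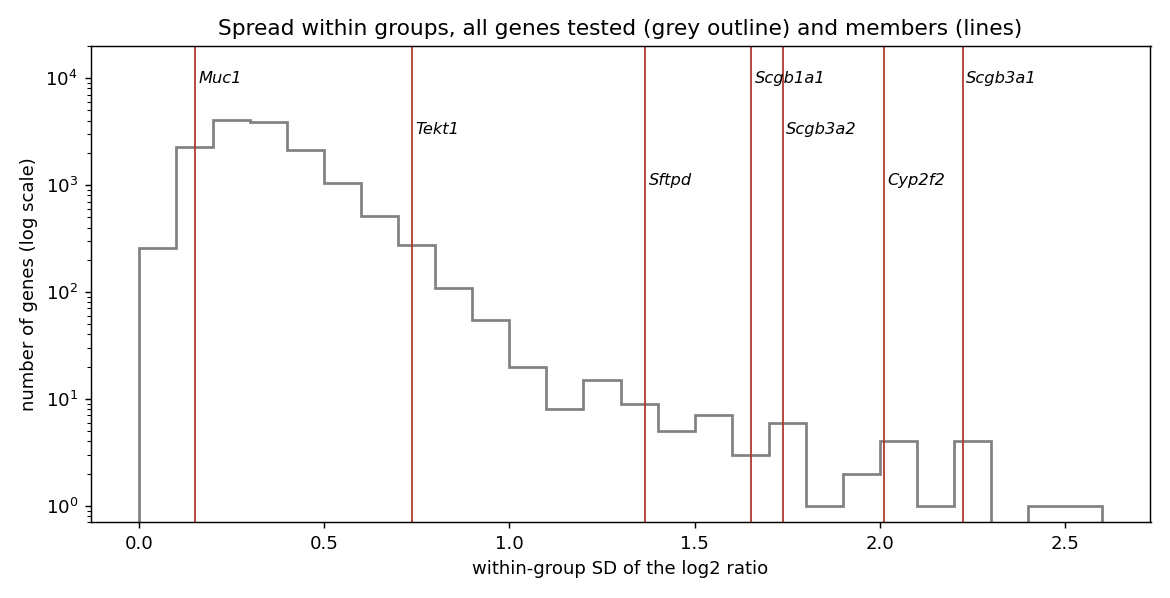
Number of genes (y axis, log scale) by within-group SD of the log2 ratio (x axis) over 14679 genes, grey outline, with the 7 tested members as red lines. The 5 secretory genes lie at 1.37 to 2.22, far to the right of the median of 0.32, Tekt1 lies at 0.74 and Muc1 at 0.15.

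In the fit of all 14679 genes, 0 of 7 members passed an adjusted p of 0.05 in any comparison (limma with Benjamini-Hochberg adjustment). For central against peripheral areas the background was 0.279% of genes in the normal and 0.586% in the dissected gland, and for dissected against normal it was 0% in either area, as for the difference between areas in the change after dissection. At an unadjusted p under 0.05, 0 of 7 members passed for central against peripheral (8.58% of genes in the normal and 7.43% in the dissected gland) and in the difference between areas (5.82%), while 1 of 7, Tekt1, passed for dissected against normal in the central (5.25%) and peripheral (8.35%) areas. No member had groups that did not overlap, a pattern shown by 4.85% and 1.67% of genes for central against peripheral in the normal and dissected gland and by 1% and 4.21% for dissected against normal in the central and peripheral area.

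Between central and peripheral areas of the normal gland, the 5 secretory genes had higher central means, by a log2 difference of 0.61 (Scgb1a1) to 1.59 (Scgb3a2, 95% interval -0.81 to 3.99), with SEs of 0.90 to 1.46. In the dissected gland the central and peripheral means lay within 0.02 (Sftpd) to 0.47 (Scgb1a1, lower in the central area) of each other, with intervals that reach 2 log2 units or more in either direction for 3 of the 5 genes. For dissected against normal in the central area, the differences ran from -0.75 (Scgb3a2) to 0.04 (Scgb1a1). In the peripheral area they ran from 0.51 (Cyp2f2) to 1.36 (Scgb3a1, SE 1.46) with dissected peripheral 4. Without that array they were -0.37 for Cyp2f2, -0.21 for Sftpd, -0.17 for Scgb3a2, 0.43 for Scgb3a1 and 0.53 for Scgb1a1. Leaving out 1 array also turned the sign for 5 of 5 genes between the areas of the dissected gland. It did so for 3 of 5 in the central comparison of dissected with normal. The differences between areas of the normal gland stayed at 0.09 to 2.25 in these fits, but their sign varied between slides. On the 3 slides with both normal areas, Cyp2f2 was lower in the central area on 2 (-1.28 to 3.33 over the slides). Scgb1a1, Scgb3a2 and Sftpd were each lower there on 1, slide 3 (-0.44, -0.01 and -0.16), and Scgb3a1 on 0. Slide 3, also 1 of the 2 for Cyp2f2, held normal peripheral 1, the array with the fewest probes above background (25.4%). Raw Cy5 of Scgb1a1, Scgb3a2 and Sftpd was 116, 178 and 100 on that array and 527, 1079 and 237 on normal central 1. The part of that array and its normalization in these signs was not tested. The 95% intervals leave room for differences of several fold in both directions. Groups of 3 to 5 areas with such a spread did not resolve them.

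**Figure D4:**
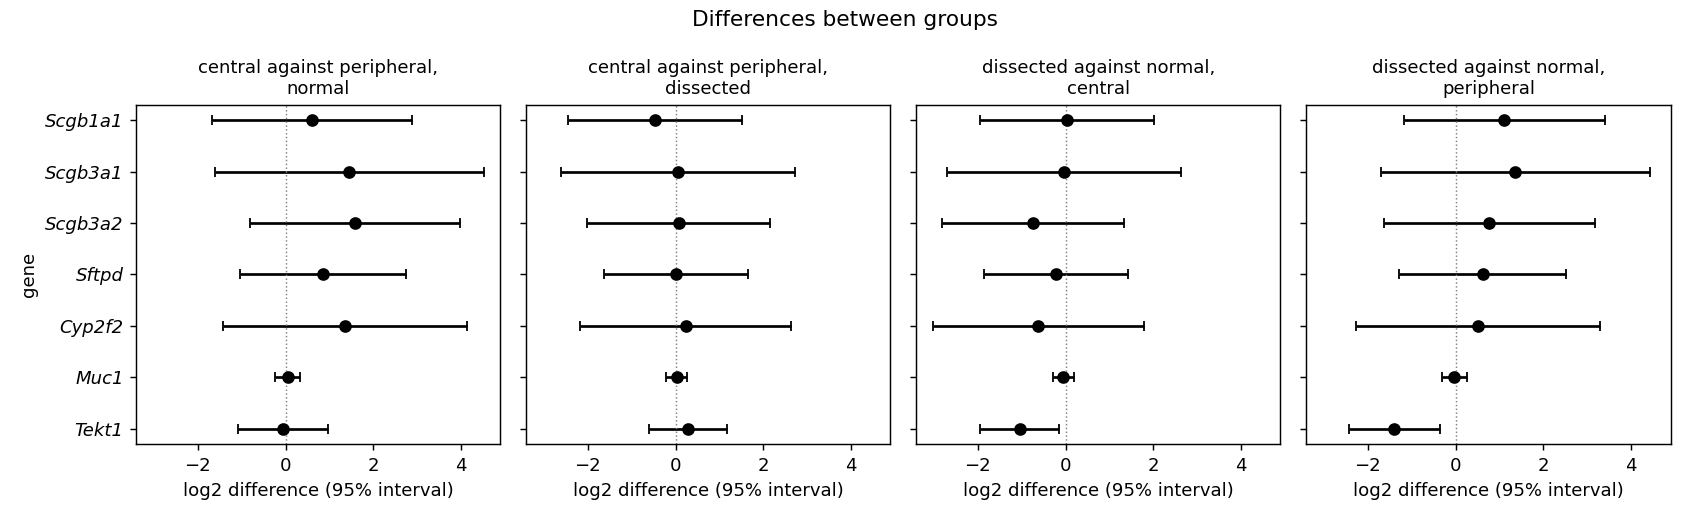
Log2 difference between groups (x axis, points) with its 95% interval (bars) from the limma fit for the 7 tested genes (y axis) in 4 comparisons. The intervals of the 5 secretory genes and Muc1 span 0 throughout, and those of Tekt1 lie below 0 for dissected against normal in both areas, before adjustment over all genes.

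Muc1, a membrane mucin of many epithelia, was measured close to background. Its brighter probe had log2 ratios of 0.12, 0.20, 0.51, 0.09 and 0.36 on the normal central arrays, 0.28, 0.22 and 0.12 on the normal peripheral arrays, 0.42, 0.00, 0.10, 0.06 and 0.44 on the dissected central arrays and 0.11, 0.17, 0.22, 0.15 and 0.23 on the dissected peripheral arrays. All values lay within 0.51 log2 units of each other, and raw Cy5 intensity was 107 to 245. It was well above background in Cy5 on 15 of 18 arrays and in Cy3 on 6 of 18. The second probe was well above background on 0 of 18 arrays in either channel and was not tested. The within-group SD of the brighter probe was 0.15, rank 13434 of 14679 from the top, with both channels near background. Differences between groups were -0.05 to 0.05.

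Foxj1, the regulator of motile cilia, was not measurable. Its probe was well above background in Cy5 on 1 of 18 arrays (normal central 3) and in Cy3 on 0 of 18, with raw Cy5 intensity of 71 to 170 over a local background of 41.5 to 49 units. Its log2 ratio lay between -0.10 and 0.45 on all arrays. It failed the filter on dim probes, and no level is given. Without that filter, no difference passed (limma adjusted p = 0.631 to 0.985).

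Tekt1 encodes tektin-1, a filament protein of the microtubules of cilia and sperm flagella. Its brighter probe was well above background on 18 of 18 arrays, with raw Cy5 intensity of 695 to 17310, and the second on 16 of 18, with 112 to 527. The log2 ratio was 0.68, 0.57, 0.93, 0.04 and 0.44 on the normal central arrays and 2.15, -0.07 and -0.32 on the normal peripheral arrays. It was -0.91, -0.56, -0.34, 0.28 and -1.05 on the dissected central arrays and -1.73, -1.45, -0.40, 0.12 and -0.55 on the dissected peripheral arrays. In the central area 4 of 5 dissected arrays lay below every normal array, and in the peripheral area 4 of 5 dissected arrays did. Normal peripheral 1, with 2.15, was the highest of the 18, and was the array with the fewest probes above background. Its raw Cy5 of 5665 lay below the 7251 to 17310 of the normal central arrays. Raw Cy3 was 4843 there, so a ratio that high appeared only after background correction and loess. The second probe had 0.17 on that array, and its own highest value was 0.91 on normal central 3.

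Among central areas, the Tekt1 mean of normal arrays was 0.53 ± 0.33 (SD, n = 5) and that of dissected arrays -0.52 ± 0.53 (SD, n = 5), a difference of -1.05 (95% interval -1.94 to -0.16, SE 0.42, limma adjusted p = 0.868). In the peripheral area it was 0.59 ± 1.36 (SD, n = 3) in normal and -0.80 ± 0.77 (SD, n = 5) in dissected arrays, a difference of -1.39 (95% interval -2.43 to -0.36, SE 0.49, limma adjusted p = 0.527). Neither was called. The second probe gave -0.71 in the central area (limma adjusted p = 0.709) and -0.48 in the peripheral area (limma adjusted p = 0.680), and its ratio correlated with that of the first probe at r = 0.706 over the 18 arrays. Without normal peripheral 1, the peripheral difference was -0.61 (limma adjusted p = 0.999), and without the 4 arrays with the fewest probes above background it was -0.38 (limma adjusted p = 0.999). In the central area, 4 of 5 slides had a lower dissected array, from -1.60 to -1.12, and slide 2 had a difference of 0.24. In the peripheral area, 2 of 3 slides had a lower dissected array (-3.89 and -1.38), and slide 2 had 0.43. The second probe was lower on the dissected array on 5 of 5 slides in the central area (-1.22 to -0.18) and on 3 of 3 in the peripheral area (-1.01 to -0.15). Within scan day 1 the differences were -0.51 and 0.17 in the central and peripheral areas and within scan day 2 they were -1.41 and -2.29, with limma adjusted p from 0.573 to 1.000.

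**Figure D5:**
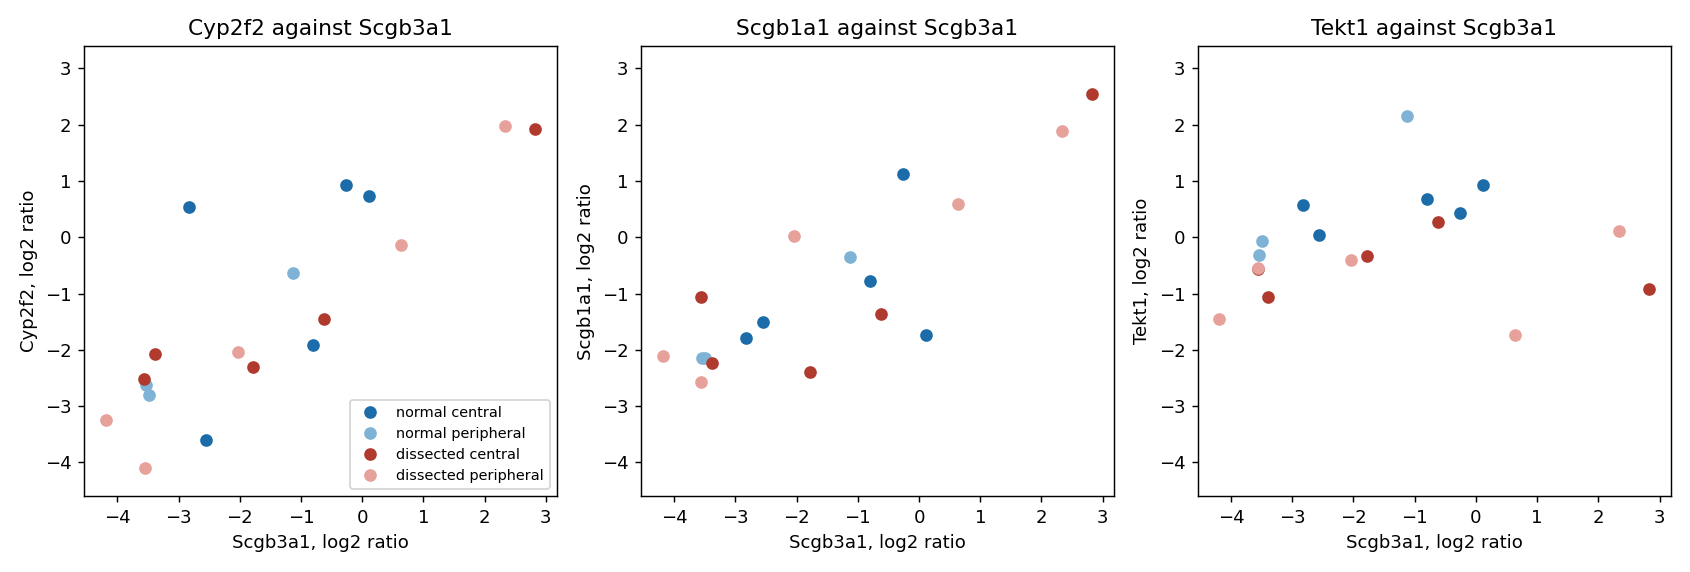
Log2 ratio of Cyp2f2, Scgb1a1 and Tekt1 (y axes) against Scgb3a1 (x axis) on the 18 arrays, coloured by group. The panels of Cyp2f2 and Scgb1a1 rise together (r = 0.838 and 0.841), and r of Tekt1 with Scgb3a1 is 0.145.

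Over all 18 arrays, Tekt1 was only weakly related to the secretory genes. Pearson's r of Tekt1 with the other 6 tested genes was 0.00388 to 0.302 and Spearman's rho 0.133 to 0.515 over the 18 arrays (permutation test, adjusted p = 0.360 to 0.987 for r and 0.0596 to 0.627 for rho). With the 4 weakest arrays left out, r with the secretory genes was 0.349 to 0.633. Muc1, close to background, had r of 0.180 (Scgb1a1) to 0.445 (Cyp2f2) with the secretory genes (permutation test, adjusted p = 0.123 to 0.557), and 0.242 to 0.572 within slides. The genes most like Tekt1 over the 18 arrays were Mrpl23, a mitochondrial ribosomal protein (r = 0.82), Fau, a ribosomal protein fusion (r = 0.82), and Pitpna, a phosphatidylinositol transfer protein (r = 0.82). None of the 23 measured genes of motile cilia reached r = 0.7 with Tekt1, a level that 0.341% of all genes reached. At so low a share, 0 of 23 does not set the list apart from other genes. The median r of the motile cilia list with Tekt1 was 0.30, against 0.0047 over all genes. It was higher, at 0.38, for the 13 C cell genes, and the 1 parathyroid gene had r of 0.39. The median was 0.13 for basal, 0.12 for airway secretory and -0.35 for skeletal muscle genes.

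The genes most like Scgb3a1 over the 18 arrays were Msln, mesothelin (r = 0.94), Reg3g (r = 0.93) and 1700007K13Rik (r = 0.87). For Scgb1a1 they were Krt23, a keratin (r = 0.94), Clca1, a secreted protein of goblet cells (r = 0.84), and Scgb3a1 itself (r = 0.84). For Scgb3a2 they included Sec14l3 (r = 0.90) and Lrrc71 (r = 0.88). For Sftpd they were Pglyrp1, a peptidoglycan recognition protein (r = 0.93), 1600029I14Rik (r = 0.93) and Reg3g (r = 0.92). For Cyp2f2 they were Gsto1, a glutathione transferase (r = 0.94), Msln (r = 0.94) and Muc16, a membrane mucin (r = 0.90). For Muc1 they were Lpo, lactoperoxidase (r = 0.83), Sp100 (r = 0.81) and Trav3-3 (r = 0.75). These genes were picked as the highest of 14678, so the values are descriptive.

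Lists of other genes that mark airway cells were compared by counts. Of 28 airway secretory genes, 26 were on the array and 25 were tested, and 10 of these 25 (40%) had r of at least 0.7 with Scgb3a1 over the 18 arrays, against 0.32% of all genes. They included Aldh1a1, Cbr2, Cyp2a5, Gsto1, Ltf, Muc16, Muc5b, Reg3g and Tff2. The count was likewise 10 of 25 for Scgb3a2, Sftpd and Cyp2f2 and 6 of 25 for Scgb1a1, against 0.225% to 0.477% of all genes. Members and lists were chosen with earlier results of these data known, and these counts share the same arrays, so they are descriptive. For Scgb3a1 it was 0 of 23 motile cilia genes, 0 of 9 alveolar genes, 0 of 10 thyrocyte genes, 0 of 13 C cell genes, 0 of 9 cartilage genes and 1 of 7 basal epithelium genes, Krt15. Beside a share of 0.32%, counts of 0 in lists of this size do not set them apart from other genes. The median r with Scgb3a1 was 0.49 for cartilage, 0.42 for basal and 0.26 for motile cilia genes. It was 0.20 for C cell, 0.05 for alveolar and -0.12 for thyrocyte genes, and -0.01 over all genes. The summed Cy5 signal of the airway secretory list, relative to the 75th percentile of each array, ran from 109 to 560 over the normal central arrays, 176 to 378 over the normal peripheral arrays, 138 to 789 over the dissected central arrays and 177 to 720 over the dissected peripheral arrays. Its highest values were on dissected central 1 and dissected peripheral 4.

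None of the 25 airway secretory genes passed the test in any comparison (limma, 0 of 25), beside 0% to 0.586% of all genes. The median difference of the list was 0.34 for central against peripheral in the normal gland and 0.02 in the dissected gland, and 0.08 and 0.26 for dissected against normal in the central and peripheral area, beside medians of all genes between -0.02 and 0.01. The list's smallest p was for Cldn10, a claudin, between the areas of the dissected gland (log2 difference 0.92, limma adjusted p = 0.619), followed by Bpifa1, a secreted airway protein, between the areas of the normal gland (2.98, adjusted p = 0.541). The 9 tested alveolar genes gave no call, and Sftpa1, Sftpb, Slc34a2, Pdpn and Etv5 were well above background on no array. Lamp3 had the smallest p in this list (log2 difference -0.39 for dissected against normal, central, adjusted p = 0.694), followed by Sftpc (0.27 for central against peripheral, dissected, adjusted p = 0.687).

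Of 42 genes of motile cilia, 40 were on the array and 23 were tested, and 9 were well above background on no array. These were Ccdc113, Hydin, Lrriq1, Pifo, Rsph1, Rsph4a, Sntn, Spag16 and Spag6, which include structural proteins of the ciliary axoneme. Fam183b was the 1 of 23 that passed. It was higher in the central area of the dissected gland (log2 difference 2.31, SE 0.49, limma adjusted p = 0.0391), with 0.69, 0.88, 1.61, 0.40 and 1.04 on the normal central arrays and -0.38, -1.27, 1.21, 0.08 and 1.18 on the dissected central arrays. It was -0.56, -2.62 and -2.18 on the normal peripheral arrays and -1.09, -2.96, -2.17, -1.59 and -2.92 on the dissected peripheral arrays. The call held in 7 of 18 fits that left out 1 array, and without the 4 weakest arrays the difference was 3.23 (limma adjusted p = 0.000245). In the normal gland its difference was 2.71 (limma adjusted p = 0.0570). The list's median difference was 0.15 and 0.14 for central against peripheral in the normal and dissected gland and -0.12 and -0.09 for dissected against normal in the central and peripheral area.

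Of 17 regulators of airway genes, 13 were tested. Foxa2, a forkhead factor of endoderm, was the 1 of 13 that passed, and was higher in the central area of the normal (log2 difference 3.05, SE 0.51, limma adjusted p = 0.0221) and of the dissected gland (3.14, SE 0.44, limma adjusted p = 0.00249). In the normal gland this call held in 13 of 18 fits that left out 1 array, and in the dissected gland in 18 of 18. Nkx2-1 had log2 ratios of -0.67 to 0.64 and passed in no comparison. Of the 13 C cell genes, 8 passed as higher in the centre of the normal gland and 10 in the centre of the dissected gland. The shares of all genes were 0.279% and 0.586%. Of 10 thyrocyte genes, 0 passed in any comparison, which beside these shares does not set that list apart.

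Genes of other tissues and cell types that an area could hold gave no call, with 0 of 7 basal epithelium genes, 0 of 9 cartilage genes, 0 of 7 skeletal muscle genes, 0 of 7 fat genes, 0 of 7 endothelial genes, 0 of 7 genes of macrophages and lymphocytes and 0 of 1 parathyroid gene (limma, any comparison). Of all genes, 0.279% and 0.586% were called between areas of the normal and dissected gland and 0% otherwise. Beside these shares, counts of 0 in lists of this size do not set them apart from other genes. Some of these lists were high on single arrays. The mean of the cartilage list, each gene centred, was highest on dissected peripheral 4 at 1.81, and that of the basal list on dissected central 5 at 1.00, followed by dissected peripheral 4 at 0.99. The muscle list was highest on dissected peripheral 1 at 1.52, and Pth on normal central 3, with a log2 ratio of 3.99. The endothelial mean ran from -0.44 to 0.31 and that of macrophages and lymphocytes from -0.39 to 0.47. The summed Cy5 signal of the cartilage list, relative to the 75th percentile of each array, was 12.8 to 25.2 on normal central, 6.53 to 72.3 on normal peripheral, 13.1 to 29.2 on dissected central and 5.15 to 109 on dissected peripheral arrays. That of the basal list was 20.7 to 44.8, 23.1 to 39.1, 19.9 to 180 and 16.7 to 61.5 in the same order. The cartilage genes Col9a1, Matn1 and Cnmd, and the desmosomal genes Dsc3 and Dsg3, were well above background on no array. The part of these tissues and cells in the values of the secretory genes was not tested.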

How the data were processed

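Each array measured 1 laser-captured thyroid area (Cy5) against a common reference (Cy3). Per the labels' protocols, RNA was extracted with Trizol and amplified with a RiboAmp kit. The authors deposited scanner files with spot and local background intensity. The program was Agilent Feature Extraction, version 9.5.1.1 per the file headers and 8.5.1.1 per the submitters' processing notes. The authors' deposited value table holds linear ratios and was used only as an alternative, its processing being not given in the sources used here. Mean intensities were background-corrected with normexp (offset 50) and normalized by loess within each array, giving log2 ratios. Non-uniform spots were left out. Probes flagged well above background in Cy5 on 3 or more arrays were retained (19102 probes), and the brightest kept probe stood for its gene (14679 genes). The 4 group means were fitted with limma 3.58.1 in R 4.3.3 and p-values adjusted by Benjamini-Hochberg over all genes, with 5 comparisons and a call at 0.05. The fit was tested on simulated data. Pairs of genes were compared with Python 3.11.15 and SciPy 1.17.1. The genes named from other lists were those called, at most 5 by smallest p, or otherwise the 2 with the smallest p, and the 3 genes most like each member. The members and lists were chosen with earlier results of these data known. The number of arrays limits the precision of every value. The values of a further gene that the naming rule selects are not reported here.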

Additional observations from a re-analysis of the deposited data

Results flagged for a closer look

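Of the values of single arrays, 4 stood apart from the rest of their group by Dixon's test at the 95% level, among 30 tested group and probe combinations, of which chance gives about 1 in 20. Scgb1a1 on dissected central 1 had a log2 ratio of 2.55, against -2.39 to -1.07 on the other 4 arrays. Cyp2f2 on the same array had 1.93, against -2.52 to -1.45. Sftpd on dissected peripheral 4 had 2.89, against -1.81 to -0.67. Sftpd on normal central 3 had 1.33, against -0.98 to -0.33.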

How the results depend on the processing

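No member was called in any comparison under any of the 31 alternative settings, including every array left out in turn. Of 1078 member differences computed under them, 969 kept their sign and 109 turned, none of them called, and the cause was not tested. With the replicate block (the replicate number as a term), the count of called members was again 0. Same-numbered arrays of different groups correlated above 0.1 in 9 of 24 pairs (median 0.067) and others in 7 of 96 (median -0.013), and 13 of 18 arrays correlated best with their own number. Of the 24 pairs, 21 shared a slide. Since not every pair passed 0.1 and no label ties the numbers, they were not taken as a pairing. With that block, the count of all genes called for central against peripheral in the normal gland fell from 41 to 4. The slide as a block gave 17, no filter 8, processed signals 78, the authors' value table gave 94, leaving out the 4 weakest arrays 95 and scan days 1 and 2 alone 1 and 0. In the dissected gland it moved from 86 to 43 with quantile scaling, 19 with the 2 groups alone, 194 without the weak arrays and 26 and 0 on scan days 1 and 2. Leaving out each array gave 1 to 76 and 46 to 173. The setting without weak arrays was chosen after seeing the data. Scan day 1 held 1 normal peripheral array, which was assumed to vary like the others.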
